A study of Mus musculus
Mus spretus with 18 samples.

Results

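The 76 genes described here are chromatin regulators of 7 families, chosen by the start of their symbols: lysine demethylases (Kdm), SET domain methyltransferases (Setd and Setdb), SWI/SNF-related remodelling proteins (Smarc), chromodomain helicases (Chd), histone deacetylases (Hdac), bromodomain proteins (Brd) and inhibitor of growth proteins (Ing). They filled 77 of 38924 rows of the expression table, since Hdac4 is listed under 2 gene identifiers, ENSMUSG00000026313 and ENSMUSG00000073617. Their splicing was read from 745 of the 100197 skipped exon (SE) events listed in 7 tissues, which lie in 71 of the genes, and from 641 of 67961 SE events and 32 of 2243 retained intron (RI) events listed in fibroblasts. The same exon can be listed in several events that differ in the flanking exons, so exons are counted as well as events.

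Chromatin regulators set which parts of the genome are open for transcription. Demethylases and methyltransferases remove and add methyl groups on histone lysines, deacetylases remove acetyl groups, bromodomain and ING proteins bind acetylated and methylated histone tails, and SWI/SNF and CHD proteins move nucleosomes with energy from ATP. Many of these proteins act in complexes with interchangeable subunits: the SWI/SNF (BAF) complex of embryonic stem cells is known to be built around Smarca4 and Smarcc1, whereas neurons use subunits such as Actl6b, Dpf1 and Ss18l1. Neurons are also known to include short exons, called micro-exons, that other cells skip, and Kdm1a carries one of them.

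RNA was sequenced from F1 hybrids of a female C57BL/6J and a male SPRET/EiJ mouse, the latter an inbred strain of Mus spretus, so that reads covering a variant could be assigned to one parental allele. Cerebral cortex, heart, kidney, lung, spleen and liver were taken from 2 female hybrids at 8 weeks of age, so organ libraries share animals, and embryonic stem cells (ESC) were 2 independent clones grown with 2i and LIF, with 2 replicates of each of these 7 tissues. The liver libraries stem from an earlier study of the same animals and carry C57BL/7J and C57BL/8J in their strain labels. Fibroblasts of the same hybrid, all of which received the solvent, were treated for 4 h with 0.1 µM pladienolide B, an inhibitor of the splicing factor SF3B, or with DMSO alone, 2 replicates each. The labels do not say whether fibroblast replicates were separate cultures, so p-values there measure the spread between these samples, which may be technical.

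Junction reads over SE events numbered between 46558287 and 129496306 per tissue library, between 148813435 and 151755602 after DMSO, and between 129067054 and 149420347 after pladienolide B. The summed level of each tissue's marker genes was highest in that tissue in all 8 cell and tissue types, from 1720 to 1800 TPM (transcript abundance scaled to gene length and library total) for the cortex list in cortex to 187901 to 203549 TPM for the lung list in lung. The liver list reached 1223 to 1423 TPM in cortex, nearly all of it Ttr. The markers of dividing cells Mki67, Top2a, Cdk1 and Ccnb1 summed to between 430 and 596 TPM in ESC, 93.1 and 233 TPM in spleen, and 0.890 and 10.8 TPM in the other organs.

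The first question was which exons of these genes are used differently between tissues. Inclusion is given as percent spliced in (PSI), the share of transcripts with the exon, on a scale from 0 to 1. The largest differences between tissues lay in subunits of the SWI/SNF complex and in Kdm1a, and cortex stood apart in most of them. Of 333 exons tested, 35 in 26 of 64 genes were called, meaning an adjusted p under 0.05 in the quasi-binomial test and a difference of at least 0.1 between the highest and the lowest tissue mean. In events these were 39 of 367, or 10.6%, against 10.5% of all 47963 autosomal events tested, a share near the background. Cortex was the tissue with the highest inclusion in 10 of the 35 exons and with the lowest in 14, and 8 exons differed by at least 0.3. Overlapping forms of an exon are counted apart here. The same counts were not made over all events, so they do not set these genes apart. Fewer cells of a type and less RNA per cell cannot be told apart in bulk samples of an organ.

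Smarcc2 encodes a scaffold subunit of SWI/SNF, and its 93 nt exon at chr10:128481682-128481774 (mm10, plus strand) showed the largest tissue difference. Cortex included it at a PSI of 0.731 and 0.741, and heart at 0.227 and 0.279. In kidney, lung, spleen, liver and ESC all 10 libraries lay between 0.060 and 0.131. Cortex and heart thus did not overlap with each other or with any other tissue (largest difference between tissue means 0.663, adjusted p = 9.06e-51, quasi-binomial F test over 17018 reads). In fibroblasts the exon was included at 0.0850 and 0.0699 after DMSO.

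Smarce1, the SWI/SNF subunit with an HMG box that binds DNA, went the other way. Its 422 nt exon at chr11:99224721-99225142 (minus strand) was included at 0.437 and 0.382 in cortex, while the other 12 tissue libraries lay between 0.862 and 0.992 (difference 0.581, adjusted p = 1.31e-26, quasi-binomial test). An overlapping 105 nt form of the exon, which begins at the same end on this strand, was included at 0.609 and 0.579 in cortex and between 0.926 and 0.996 elsewhere. Both forms describe partly the same reads and are not separate evidence. Cortex was the only tissue of the 7 in which less than 0.8 of the transcripts carried either form.

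Both alternative ATPases of SWI/SNF had a tissue-dependent exon. In Smarca2 a 54 nt exon at chr19:26759878-26759931 was included at 0.189 and 0.199 in cortex, at 0.518 and 0.493 in kidney and at 0.560 and 0.505 in liver (adjusted p = 1.31e-24, quasi-binomial test). The 2 ESC clones gave 0.259 and 0.457 for this exon, a spread wider than the gap between the means of heart and kidney. In Smarca4 a 99 nt exon at chr9:21677953-21678051 was mostly skipped, with 0.194 and 0.166 in cortex and between 0.012 and 0.044 in the 12 other tissue libraries (adjusted p = 7.41e-22). A second Smarca2 exon of 106 nt was lower in spleen, at 0.803 and 0.859, than in the other tissues, where it lay between 0.919 and 0.973 (adjusted p = 2.14e-10).

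Kdm1a removes methyl groups from lysine 4 of histone H3, and its 12 nt micro-exon at chr4:136563438-136563449 (minus strand) was included at 0.481 and 0.476 in cortex. In ESC its PSI was 0.000 and 0.001, and the event was tested in these 2 tissues alone (adjusted p = 1.37e-39, quasi-binomial test). The event was not listed in heart, kidney, lung, spleen or liver, where Kdm1a itself was expressed at between 7.56 and 44.4 TPM. No event in the tables has 0 reads of one form over all samples, so an unlisted event may mean that no read included the exon. In fibroblasts the PSI was at most 0.001 in each of the 4 libraries. The 60 nt exon of the same gene at chr4:136582040-136582099 varied far less, from 0.480 and 0.525 in cortex to 0.642 and 0.641 in lung.

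**Figure D1:**
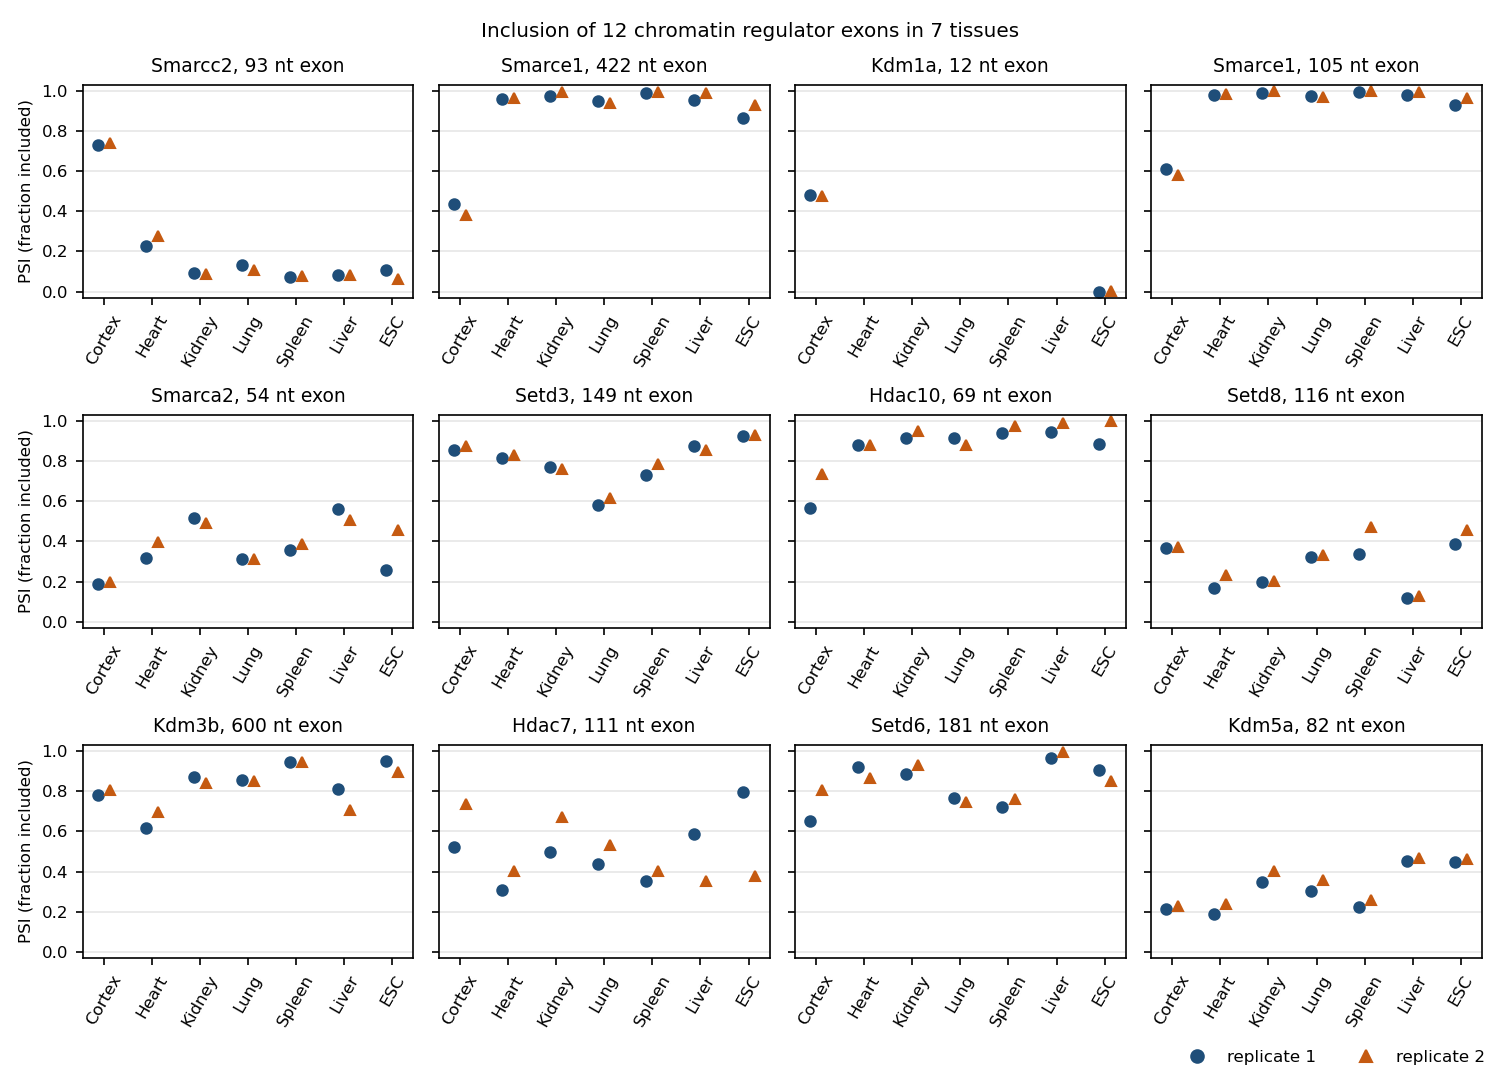
PSI (vertical axis, fraction of transcripts with the exon) in the 7 tissues for 12 called exons with the largest differences between tissue means, with one point per library and the replicates told apart by colour and shape. Cortex stands apart in Smarcc2, Smarce1 and Kdm1a, whereas the replicates of Hdac7 spread as widely as the tissues.

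Among the other demethylases the differences were smaller, with heart lowest in 2 called exons and cortex lowest in 3. The 600 nt exon of Kdm3b, an H3K9 demethylase, was included least in heart, at 0.617 and 0.697, and most in spleen, at 0.947 and 0.946 (adjusted p = 4.20e-10, quasi-binomial test). The 82 nt exon of Kdm5a, an H3K4 demethylase, was at 0.453 and 0.469 in liver and at 0.449 and 0.464 in ESC, against 0.188 to 0.260 in cortex, heart and spleen (adjusted p = 1.76e-09). An 84 nt exon of Kdm4b was lower in cortex, at 0.683 and 0.757, than in the other tissues, which lay between 0.876 and 0.970. Exons of 114 nt in Kdm2b and 172 nt in Kdm1b were also lowest in cortex, at 0.835 and 0.829 and at 0.791 and 0.870. In all, 7 of 67 Kdm exons were called.

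The Setd genes held 8 called exons of 50 tested. Setd3, which methylates a histidine of actin, included a 149 nt exon at 0.579 and 0.617 in lung, between 0.732 and 0.784 in kidney and spleen, and at 0.922 and 0.931 in ESC (adjusted p = 2.47e-22, quasi-binomial test). Setd8, the enzyme that adds a single methyl group to lysine 20 of histone H4, included a 116 nt exon at 0.118 and 0.126 in liver against 0.389 and 0.456 in ESC. Setd6 included a 181 nt exon least on average in cortex, at 0.649 and 0.807, and most in liver, at 0.965 and 0.995. In 2 exons of Setd5 cortex was highest, but the 225 nt exon at chr6:113105917-113106141 had lung replicates of 0.893 and 0.493 beside 0.804 and 0.802 in cortex. The 121 nt exon of Setd6 lost its call without ESC replicate 1, when its difference was 0.147.

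In the deacetylases 5 of 57 exons were called. A 112 nt exon of Hdac5, a class IIa deacetylase, rose to 0.369 and 0.315 in cortex from 0.105 to 0.238 in the other 6 tissues, with ESC lowest (adjusted p = 9.29e-10, quasi-binomial test). Hdac10, which is known to deacetylate polyamines, had 3 called exons, all lowest on average in cortex, of which the 77 nt and the 66 nt one overlap. Its 69 nt exon was at 0.565 and 0.735 in cortex and between 0.880 and 1.000 elsewhere, and the call was lost without Cortex replicate 1, when the difference was 0.229. For the 111 nt exon of Hdac7 at chr15:97808660-97808770, another class IIa gene, the tissues overlapped, with ESC clones at 0.797 and 0.377 and cortex replicates at 0.524 and 0.735 (adjusted p = 0.000296). Of Hdac9 and Hdac11, whose expression differed most between cortex and the other organs among the deacetylases, 7 exons were tested and none was called, with differences of at most 0.0744.

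Chd genes had 5 called exons of 54, all with differences under 0.2. In Chd3, a helicase of the NuRD corepressor complex, a 102 nt exon was lower in ESC, at 0.874 and 0.733, than in liver, at 0.953 and 0.948, and in fibroblasts it was at 0.557 and 0.525 after DMSO. The 5 tested exons of its paralogue Chd4 differed by at most 0.0145 between tissues and none was called. Bromodomain genes had 3 called exons of 40 and Ing genes 1 of 7. Brd3, a BET protein that binds acetylated histones, included a 51 nt exon at 0.254 and 0.229 in ESC and at 0.056 and 0.073 in spleen.

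In 16 of the 35 called exons the difference between tissue means was under 0.2. A 217 nt exon of Setd2 was mostly skipped, at 0.0430 and 0.0479 in cortex and 0.198 and 0.164 in spleen (adjusted p = 3.62e-11, quasi-binomial test). A 92 nt exon of Brd2 was at 0.161 and 0.185 in cortex and between 0.219 and 0.326 in the other tissues. A 141 nt exon of Chd2 was lowest in liver, at 0.809 and 0.849, while the other tissue libraries lay between 0.915 and 1.000. Of Smarcc1, Smarcd1, Smarcd3, Chd7, Setdb1 and Hdac1 no exon was called, and no difference exceeded 0.0234.

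The called exons were more often a multiple of 3 nt long than the tested ones. This held for 19 of the 35 exons, or 54.3%, against 38.7% of the 333 tested exons of these genes and 41.5% of the 40714 exons tested in all. Such exons can be included or skipped without a shift of the reading frame where they lie in the coding part. The counts are a description without a test, and overlapping forms of an exon are counted apart. The share among called exons of all genes was not computed. For exons of these genes called after pladienolide B the share was 38.2%, against 40.1% of those tested there.

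The second question was whether the alleles of one hybrid cell splice these exons differently, since both alleles share one nucleus and its splicing factors. Few did. An exon of Kdm4b differed between the alleles in most tissues, and 3 others were called in 1 tissue each. The 4 exons were among 403 tested in at least 1 tissue, or in events 4 of 451, against 2.02% of all 65721 events. In cortex 2 of 177 events were called, with 1.61% of all events, in lung 2 of 141 with 2.07% and in spleen 2 of 159 with 1.85%. The heart gave 1 of 112 with 2.12% and the kidney 1 of 151 with 2.01%. No event was called among 69 in liver, where 1.56% of all events were, and none among 270 in ESC, where 0.462% were. In liver 8 and in ESC 14 of these events had an unadjusted p under 0.05 in the quasi-binomial test.

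Kdm4b demethylates lysine 9 of histone H3, and its 109 nt exon at chr17:56344334-56344442 (plus strand) was used almost exclusively on the C57BL/6J allele. In heart its PSI was 0.480 and 0.557 on the C57BL/6J allele and 0.0236 and 0.0303 on the SPRET/EiJ allele (adjusted p = 0.00403, quasi-binomial test). In lung the C57BL/6J values were 0.405 and 0.451 and both SPRET/EiJ values were 0 (adjusted p = 0.00318). The cortex values were 0.333 and 0.366 against 0.0127 and 0.0184, those of kidney 0.347 and 0.351 against 0 and 0, and those of spleen 0.519 and 0.341 against 0.0204 and 0. In none of these 5 tissues did the alleles overlap, and the SPRET/EiJ allele stayed at or under 0.0303 in each. Between 28 and 116 allelic reads stood behind each of these values, and a value of 0 allows up to 3 inclusion reads, which is 8.33% and 6.67% of the reads in lung and 10.7% and 7.32% in kidney, by counting error alone.

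In liver the same Kdm4b exon fell under the minimum of 20 reads per allele, with values of 0.517 and 0.688 on C57BL/6J and 0 and 0 on SPRET/EiJ. In ESC it stood at 0.25 and 0.185 against 0.08 and 0, a difference of 0.178 that missed the threshold (adjusted p = 0.761, quasi-binomial test). DMSO fibroblasts, with at least 379 allelic reads per value, gave 0.365 and 0.295 against 0.00924 and 0.0178 (adjusted p = 0.000125). The C57BL/6J allele was thus the higher one in all 8 of these tissues and cells. Summed over alleles, the exon was not called across tissues (largest difference 0.156, adjusted p = 0.271).

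The other allelic calls rested on 1 tissue each. Setd4, a SET domain methyltransferase, included an 89 nt exon at chr16:93593247-93593335 at 0.933 and 0.918 on the C57BL/6J allele and 0.4 and 0.333 on the SPRET/EiJ allele of cortex (adjusted p = 0.0228, quasi-binomial test), on 22 to 70 reads per value. In DMSO fibroblasts the same exon gave 1.000 and 1.000 against 0.535 and 0.764 (adjusted p = 0.0655), and in the other 6 tissues at least 1 value rested on fewer than 20 reads. Chd6 included a 120 nt exon at chr2:160956083-160956202 at 0.907 and 0.913 against 0.670 and 0.713 in lung (adjusted p = 0.0306). Its C57BL/6J allele was also the higher one in kidney, at 0.945 and 0.926 against 0.817 and 0.714 (adjusted p = 0.0916), and in liver, at 0.864 and 0.906 against 0.647 and 0.563 (adjusted p = 0.260). In DMSO and pladienolide B fibroblasts its allelic differences of 0.0343 and -0.127 did not pass. Setd3 included a 123 nt exon at 0.221 and 0.257 against 0.04 and 0.0581 in spleen (adjusted p = 0.0413, quasi-binomial test). Its C57BL/6J allele was the higher one on average in every other tissue and in fibroblasts as well. The fibroblast differences of 0.0398 after DMSO and 0.0545 after pladienolide B missed the call by size alone (adjusted p = 0.0451 and 0.0319, quasi-binomial test).

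Fibroblasts added Hdac7 after DMSO and 2 exons after pladienolide B. The calls were 2 of 205 events after DMSO, with 2.15% of all events, and 2 of 219 after pladienolide B, with 1.94% of all. The 111 nt exon of Hdac7 was lower on the C57BL/6J allele of DMSO fibroblasts, at 0.477 and 0.499 against 0.656 and 0.695 (adjusted p = 0.00475, quasi-binomial test). It was also lower on that allele on average in heart, kidney and ESC, by 0.133, 0.0797 and 0.146, but in these tissues the test was not passed. After pladienolide B the 133 nt exon of Chd2, a chromodomain helicase, stood at 0.182 and 0.271 on the C57BL/6J allele and at 1.000 and 0.665 on the SPRET/EiJ allele (adjusted p = 0.0136). The 215 nt exon of Brd2, a BET bromodomain protein, stood at 0.807 and 0.794 against 0.956 and 0.913 (adjusted p = 0.0308).

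**Figure D2:**
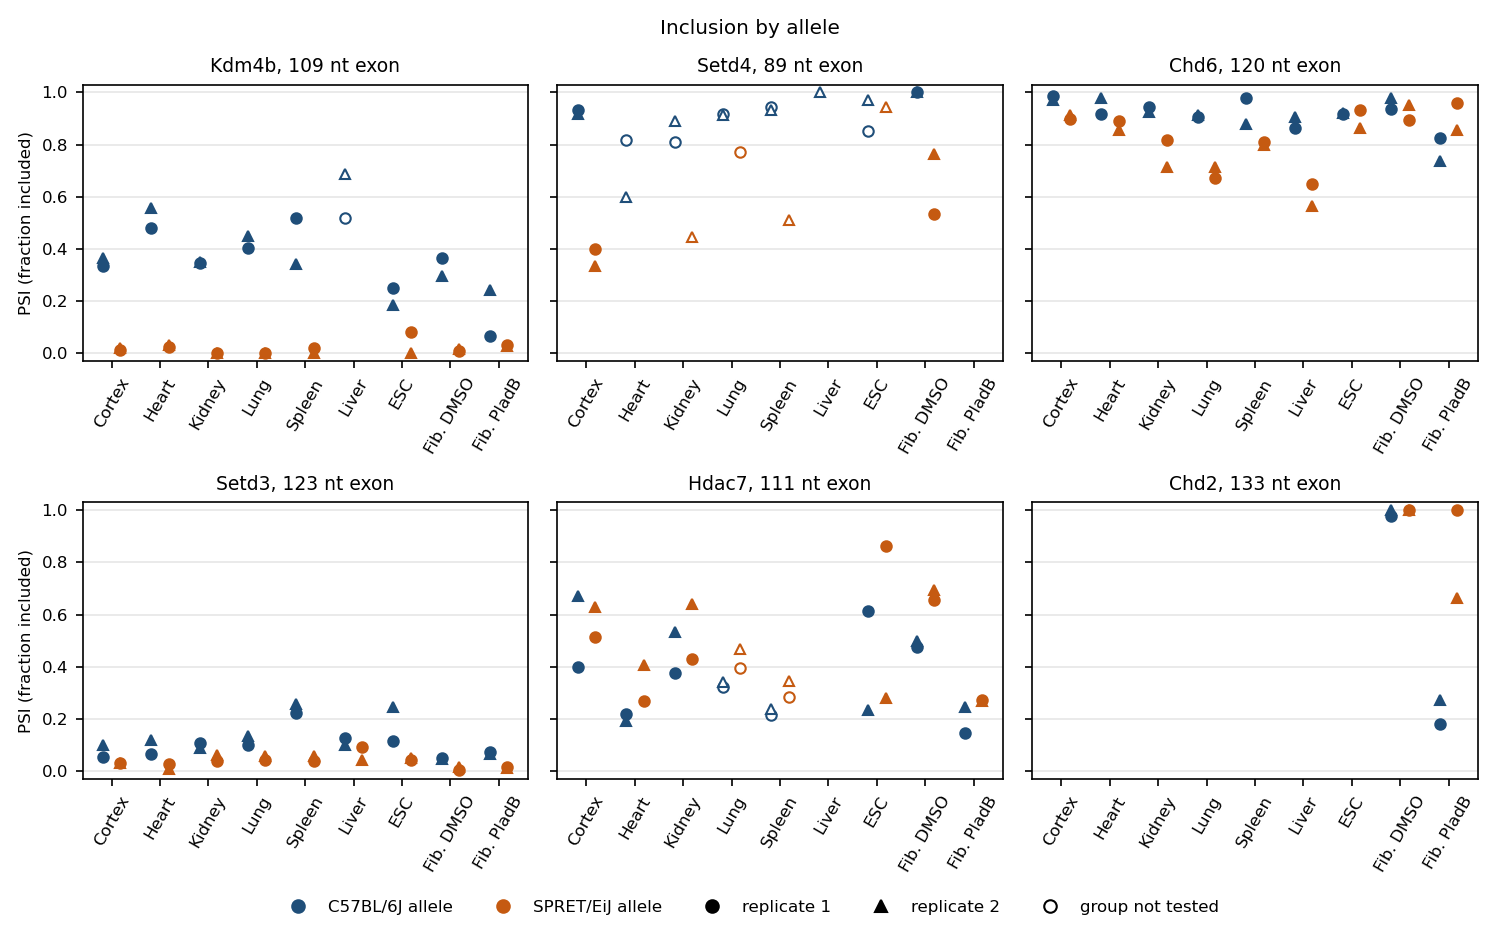
PSI (vertical axis, fraction of transcripts with the exon) on the C57BL/6J allele (blue) and the SPRET/EiJ allele (orange) in 7 tissues and in fibroblasts after DMSO or pladienolide B, for 6 of the 7 exons called between alleles, with one point per library. Values on fewer than 20 reads are not drawn, open symbols mark groups that were not tested, and in Kdm4b the orange points lie near 0 wherever drawn.

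Both alleles of a library come from the same RNA, and their replicate differences were correlated in all 9 groups, with r between 0.139 and 0.354 across events. With the library as a block, 0 of the chromatin regulator events were called in any allelic comparison. Over all events the fit with the block also called 0 in fibroblasts after DMSO and 0 after pladienolide B. For the tissues the count over all events with the block was not made. The loss of the tissue calls thus does not set these genes apart. With so few libraries per group, the block leaves little residual spread to test against. The loss of calls therefore does not show that the alleles are spliced alike.

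The third question was whether pladienolide B changes the difference between the alleles. No event of these genes passed that test. The test compares odds of inclusion and not PSI itself. Where the DMSO values lie near 1, as in Chd2 and Brd2, it can hardly detect a change. For such exons it does not answer the question. Of 91 events tested, 0 were called and 4 had an unadjusted p under 0.05 in the quasi-binomial model with limma-moderated dispersion, against 7 calls among all 13352 events (0.0524%). The Chd2 exon had the largest change, from an allelic difference of -0.0102 after DMSO to -0.606 after the drug (change -0.596, adjusted p = 1.00 in the same quasi-binomial model with limma). All 4 of its DMSO values were between 0.980 and 1.000, on 65 to 105 reads. The Brd2 exon moved from -0.000561 to -0.134, and the Kdm4b exon from 0.316 to 0.123, with drug values of 0.0646 and 0.241 on the C57BL/6J allele and 0.0330 and 0.0269 on the other.

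The fourth question was what pladienolide B does to exon inclusion in total. Most exons of the chromatin regulators were not called, and nearly all called ones were lower, as over all events. Many of the called ones were exons that nearly every transcript carried after DMSO. Of 419 exons tested, 68 in 28 of 57 genes were called, with 66 lower and 2 higher after the drug, and 16 lower by at least 0.3. In 59 of the 68 the DMSO PSI was at least 0.9, and an exon near 1 can only fall. Neither this count nor that of falls of at least 0.3 was made over all events, so they do not set these genes apart. In events the calls were 77 of 500, or 15.4%, against 8.06% of all 54535 events, with 74 lower (7.92% of all events) and 3 higher (0.145% of all). Without PladB replicate 1, and likewise without PladB replicate 2, the count was 0 for these genes and 0 over all events, while 172 and 154 of their events kept an unadjusted p under 0.05 in the quasi-binomial test.

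Chd8, a chromodomain helicase whose human counterpart is linked to autism, lost the most: its 180 nt exon at chr14:52202144-52202323 went from 0.931 and 0.946 after DMSO to 0.181 and 0.271 after pladienolide B (adjusted p = 0.000110, quasi-binomial test). A second Chd8 exon of 55 nt fell from 1.000 in both DMSO libraries to 0.768 and 0.569. The 133 nt exon of Chd2 at chr7:73540772-73540904 fell from 0.991 and 1.000 to 0.470 and 0.444. In these exons, which were picked among the largest falls, no drug value reached any DMSO value. The Chd genes had 10 called exons of 79, and 4 of them were in Chd2 and 3 in Chd1.

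The Setd and Kdm genes held 16 of 62 and 15 of 90 called exons. The 75 nt exon of Setd3 fell from 1.000 in both DMSO libraries to 0.329 and 0.279, on only 21 and 23 DMSO reads. Setd5 had 8 called exons of 12, led by a 59 nt exon at chr6:113110866-113110924 that fell from 1.000 in both DMSO libraries to 0.332 and 0.352 on 125 and 216 reads (adjusted p = 4.93e-05, quasi-binomial test). The 112 nt exon of Kdm5b, an H3K4 demethylase, fell from 1.000 in both replicates to 0.350 and 0.353 (adjusted p = 4.76e-05). The 47 nt exon of Kdm2a, an H3K36 demethylase, fell from 1.000 to 0.483 and 0.702, a wide spread on 40 and 49 reads.

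Of the exons tested, 18 of 49 were called in the Brd genes, 6 of 81 in the Smarc genes, 2 of 56 in the Hdac genes and 1 of 2 in the Ing genes. Brd8, a subunit of the NuA4 acetyltransferase complex, had 8 called exons of 14 and Brd2 had 5 of 8. In Brd8 the 45 nt exon fell from 1.000 in both DMSO replicates to 0.664 and 0.584, and the 145 nt exon from 1.000 to 0.437 and 0.732. Of the SWI/SNF genes, Smarce1 had 4 called exons of 9. In the called event its 52 nt exon at chr11:99228497-99228548 fell from 0.973 and 1.000 to 0.285 and 0.427 (adjusted p = 0.00131, quasi-binomial test). In another event of this exon, with a different flanking exon, the allelic values stayed high after the drug. They were 0.954 and 1.000 on C57BL/6J and 1.000 and 0.973 on SPRET/EiJ, so the fall depends on the event. The 110 nt exon of Smarcad1, an ATP-dependent remodeller, fell from 0.994 and 0.997 to 0.562 and 0.673. Hdac7 lost its 111 nt exon in part, from 0.587 and 0.602 to 0.219 and 0.304, and this exon was also called across tissues. The families were not tested against each other.

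Only 2 exons gained inclusion. The 225 nt exon of Setd5, in the same gene as 7 exons that fell, rose from 0.547 and 0.538 to 0.808 and 0.847 (adjusted p = 0.00251, quasi-binomial test). The 121 nt exon of Setd6 rose from 0.821 and 0.861 to 1.000 and 0.976 (adjusted p = 0.0478), and its call was lost without any one of the 4 libraries, when the rise lay between 0.127 and 0.167. Both exons were also among the 10 called across tissues and after the drug.

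**Figure D3:**
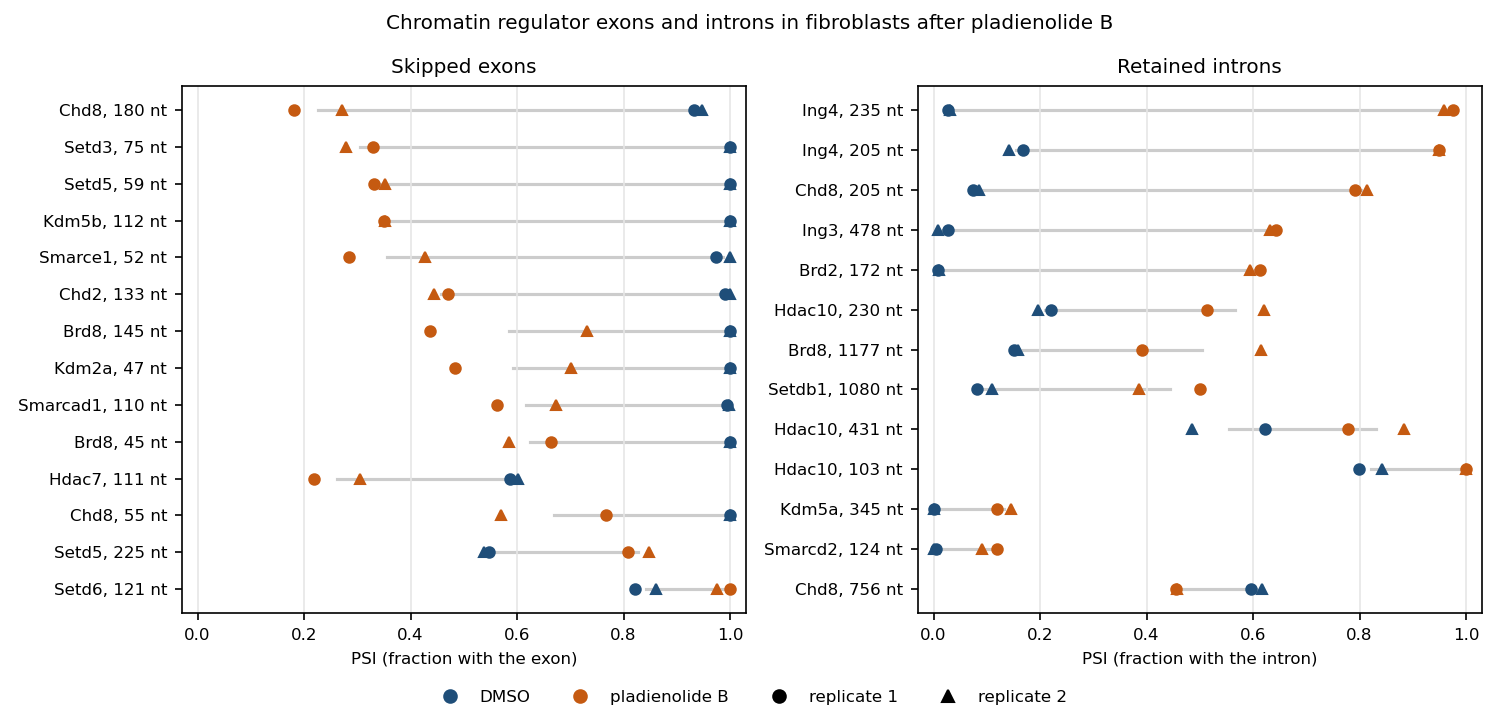
PSI (horizontal axis, fraction of transcripts with the exon or intron) in fibroblasts after DMSO (blue) and pladienolide B (orange), with one point per library and a grey line between the group means, for the 12 called exons that fell most and the 2 that rose (left) and for all 13 called introns (right). Drug and control points do not overlap in any row, but the rows were chosen as called, so this is no separate support. After the drug 12 of the 13 introns lie further right.

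Introns of the same genes were retained more after the drug, and for introns of Ing4, Ing3, Chd8, Brd2 and Hdac10 the retained form became the major one. Of 26 introns tested, 13 in 9 of 14 genes were called, 12 higher and 1 lower. This was 50% against 38% of all 1802 RI events, with 35.1% of all events higher and 2.89% lower. The largest rise was in Ing4, a reader of methylated H3K4 in an acetyltransferase complex: the 235 nt intron at chr6:125047941-125048175 went from 0.0272 and 0.0301 to 0.975 and 0.958 (adjusted p = 5.94e-09, quasi-binomial test), and the 205 nt intron upstream from 0.168 and 0.142 to 0.948 and 0.949. Listed Ing4 introns of 314 and 588 nt that overlap these were already at 0.924 and 0.952 and at 0.994 and 0.965 after DMSO. In Ing3 a 478 nt intron went from 0.0263 and 0.00851 to 0.644 and 0.632. In Chd8 a 205 nt intron rose from 0.0744 and 0.0855 to 0.792 and 0.815. The 756 nt intron that contains its 180 nt exon fell from 0.595 and 0.616 to 0.456 and 0.457 (adjusted p = 0.0241, quasi-binomial test). The spliced form of this 756 nt intron is the junction that skips the 180 nt exon. Its fall and the loss of that exon thus share reads and are not separate evidence.

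Brd2 gave the deepest measurement, with at least 2478 reads per library. Its 172 nt intron at chr17:34114178-34114349 was at 0.00879 and 0.0107 after DMSO and at 0.612 and 0.593 after pladienolide B (adjusted p = 1.44e-11, quasi-binomial test). Brd8 and Setdb1, an H3K9 methyltransferase, retained introns of 1177 and 1080 nt, from 0.151 and 0.158 to 0.392 and 0.615 and from 0.0809 and 0.110 to 0.5 and 0.386. Hdac10 had 3 called introns, of which the 431 nt one was already at 0.623 and 0.485 after DMSO and rose to 0.778 and 0.884. The 230 nt intron of Hdac10 rose from 0.220 and 0.197 to 0.513 and 0.621. The rises in Kdm5a and in Smarcd2, a SWI/SNF subunit, were small, to 0.120 and 0.145 and to 0.119 and 0.0910. The call of the Chd8 intron that fell was lost without any one of the 4 libraries, the 431 nt intron of Hdac10 without DMSO replicate 2 or PladB replicate 2, and its 103 nt intron without PladB replicate 2.

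Expression levels in TPM, which are per gene length and so can be set side by side, told the tissues apart in every row. All 76 rows with a mean of at least 1 TPM in some tissue were called across the 7 tissues, against 99.3% of all 22475 genes. ESC was the highest tissue in 42 rows, cortex in 23 and spleen in 9. Liver was the lowest in 63. The order of tissues was not counted over all genes, so these counts do not set the chromatin regulators apart. Kdm5d, which lies on the Y chromosome, was listed at 0 in all organ and fibroblast libraries and at 0.00392 and 0.00660 TPM in the ESC clones.

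Most chromatin regulators were higher in ESC than in the 6 organs, and 9 rows, among them 3 SWI/SNF subunits and 5 deacetylases, were lower. Of 76 rows 63 were called, against 76.8% of all genes, with 54 higher and 9 lower at an adjusted p under 0.05 (limma) and a log2 difference of at least 0.5. Over all genes 45.3% were higher and 31.5% lower. With the libraries set to a common median of log2(TPM + 0.1), 42 rows were higher and 12 lower, beside 32.8% and 43.6% of all genes. The median log2 difference was 1.28 in the chromatin regulators and 0.35 in all genes, and 0.66 and -0.27 with a common median. The markers of dividing cells, at 430 to 596 TPM in ESC, moved with these genes, and their part in the difference was not tested.

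Paralogous core subunits of SWI/SNF differed between ESC and organs in opposite directions, also with a common median. Smarcc1 stood at 125 TPM in both ESC clones and between 8.29 and 42.0 TPM in the 12 organ libraries (log2 difference 2.62, SE 0.08, adjusted p = 1.2e-09, limma). Its paralogue Smarcc2 stood at 25.9 and 27.0 TPM in ESC and between 47.7 and 218 TPM in the organs (log2 difference -1.83, SE 0.05, adjusted p = 8.8e-10). For the ATPases, Smarca4 was at 138 and 125 TPM in ESC and between 16.5 and 88.9 TPM in the organs, whereas Smarca2 was at 6.28 and 3.11 TPM against 21.6 to 105 TPM. In none of these 4 genes did ESC overlap with any organ. In ESC there was more Smarcc1 than Smarcc2, and in every organ library more Smarcc2 than Smarcc1. Smarcd3, a subunit known from heart and neurons, was at 1.05 and 2.01 TPM in ESC, 34.5 and 32.9 TPM in heart, and 40.7 and 42.5 TPM in cortex.

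Among the demethylases 13 of 17 rows were higher in ESC and none was lower. Kdm5b led with 196 and 170 TPM against 6.01 to 34.4 TPM in the organs (log2 difference 3.77, SE 0.08, adjusted p = 1.8e-10, limma). Kdm1a was at 214 and 180 TPM against 7.56 to 44.6 TPM, and Kdm2b, which brings Polycomb complexes to CpG islands, at 28.2 and 47.5 TPM against 1.39 to 10.6 TPM. Kdm5a was at 41.3 and 38.3 TPM in ESC against 2.73 to 17.2 TPM in the organs. The X-linked H3K27 demethylase Kdm6a and the X-linked H3K4 demethylase Kdm5c were also higher, by log2 differences of 1.44 and 1.52.

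The deacetylases split into 5 rows higher and 5 lower. Hdac6, a cytoplasmic deacetylase of tubulin, was at 219 and 147 TPM in ESC against 8.14 to 56.1 TPM, and Hdac1, the class I enzyme of NuRD and Sin3 complexes, at 191 and 336 TPM against 13.6 to 132 TPM. Hdac9 (1.97 and 0.355 TPM in ESC), Hdac11, Hdac7, Hdac10 and Hdac5 were lower than the mean of the organs, by log2 differences between -2.69 and -1.21. The spread between the ESC clones was large for Hdac9, and for Setd7, a lysine methyltransferase at 34.0 and 6.34 TPM that was not called. Chd3 was the one Chd gene called lower, at 16.1 and 20.4 TPM in ESC, 245 and 257 TPM in cortex and 13.7 and 14.5 TPM in heart, so that ESC was not below every organ, while Chd4 was at 222 and 235 TPM in ESC against 27.1 to 141 TPM. The pseudogene Smarca5-ps, at 8.32 and 7.43 TPM in ESC and at most 0.0410 TPM elsewhere, may share reads with Smarca5 and is uncertain, as are Kdm4d and Kdm4dl with each other.

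Cortex differed from the 5 other organs in 55 rows, with 72.7% of all genes called, and was higher in 52 and lower in 3, against 48.2% and 24.5% of all genes. With a common median of the libraries the counts were 32 and 11, beside 36% and 35.4% of all genes. Chd5, a helicase known as neuronal, was at 120 and 129 TPM in cortex and at most 1.68 TPM in the other organs (log2 difference 7.91, SE 0.27, adjusted p = 2.2e-09, limma). Smarca1, an ISWI ATPase, was at 27.7 and 29.3 TPM against at most 1.17 TPM. Hdac11, the only class IV deacetylase, was at 154 and 162 TPM against 7.61 to 36.5 TPM, and Smarcd1 at 146 and 152 TPM against 4.97 to 54.7 TPM. Hdac4, a class IIa deacetylase, was at 27.1 TPM in both replicates under ENSMUSG00000026313, against 0.593 to 10.1 TPM in the other organs. Hdac9 was at 31.6 and 35.2 TPM against 0.423 to 29.8 TPM, and Setd7 at 108 and 113 TPM against 1.77 to 34.3 TPM. The 3 lower rows were Smarcd2 (13.6 and 13.3 TPM in cortex, 141 and 113 TPM in spleen), Setd8 (27.3 and 28.6 TPM in cortex, 154 and 152 TPM in heart) and Chd1l, a helicase that binds poly(ADP-ribose).

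Spleen was highest for Hdac10, at 68.5 and 47.2 TPM against at most 22.6 TPM in the other tissues, and lung for Hdac7, at 186 and 172 TPM, followed by spleen at 97.8 and 83.7 TPM. Heart was highest for Setd8, and kidney for Kdm1b, an H3K4 demethylase, at 27.6 and 25.1 TPM. These levels are a description of the order, tested only by the comparison across all 7 tissues.

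Several calls in cortex depended on how the libraries were scaled. With a common median the cortex differences of Brd8, Setdb1, Smarca4, Smarcc1, Kdm1a, Kdm6a and Chd7 were 0.10 to 0.48 on the log2 scale and no longer called. Hdac1, not called in cortex at first, was lower there by 0.90 with a common median.

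**Figure D4:**
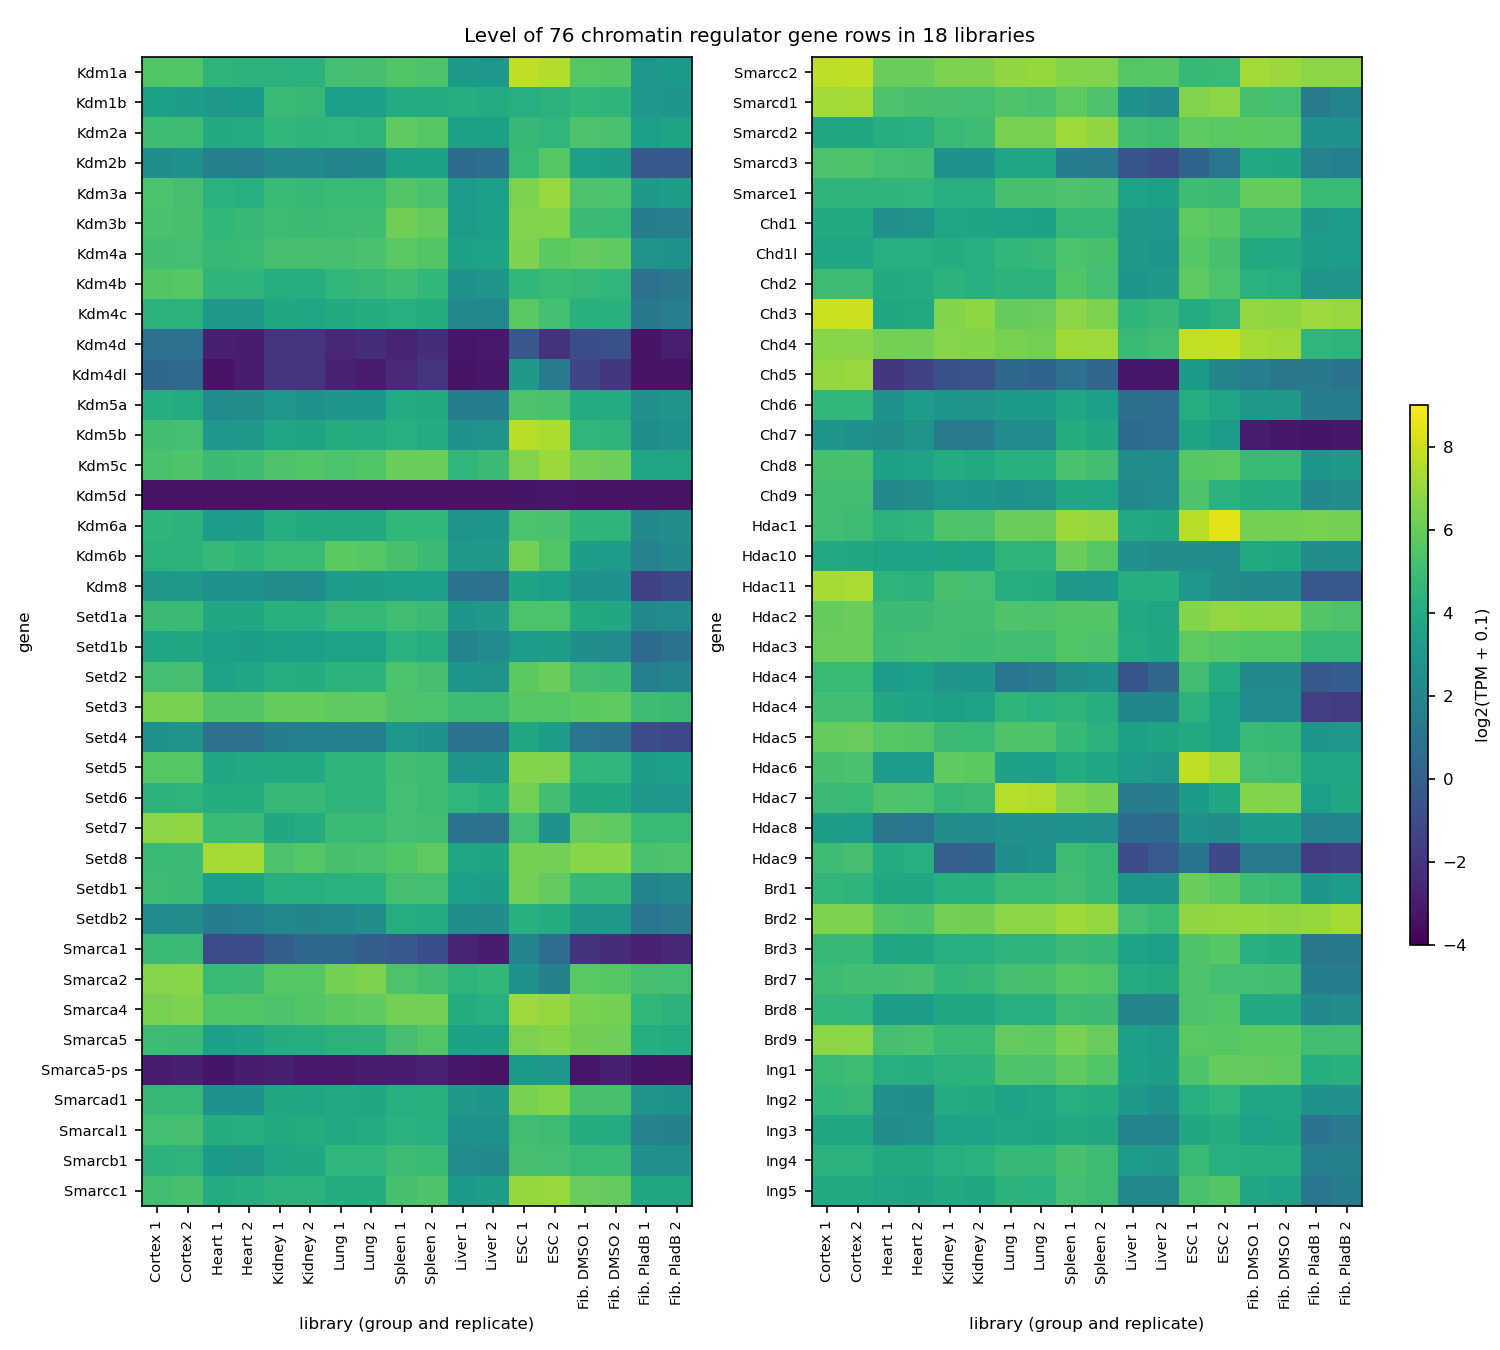
Level of 76 of the 77 gene rows (vertical axis, ordered by family) in the 18 libraries (horizontal axis), as colour on the scale of log2(TPM + 0.1). The ESC columns are bright for most Kdm genes, Chd5 and Smarca1 are bright in cortex, and most rows darken from the DMSO to the pladienolide B columns.

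Partner subunits outside the 7 families differed in the same comparisons. Of 15 BAF partners, 9 were higher and 3 lower in ESC, and 10 were higher and 2 lower in cortex, and with a common median of the libraries 5 were higher and 5 lower in ESC and 9 higher and 2 lower in cortex. Actl6a, the subunit of dividing cells, was at 136 and 177 TPM in ESC and 14.8 and 15.2 TPM in cortex, and its neuronal paralogue Actl6b at 0.0331 and 0.0279 TPM in ESC and 112 and 119 TPM in cortex. Dpf1 (38.3 and 39.9 TPM in cortex) and Ss18l1 (47.0 and 49.4 TPM) were highest in cortex as well. Of the 5 Polycomb repressive complex 2 genes Ezh1, Ezh2, Eed, Suz12 and Jarid2, 4 were higher in ESC and Ezh1 was lower, on either scale. In cortex 3 of the 5 were higher, but with a common median none was and 2 were lower. NuRD and corepressor partners were higher in 13 and lower in 1 of 16 genes in ESC, and higher in 7 and lower in 3 in cortex. Histone acetyltransferases were higher in 6 of 9 genes in ESC and in 7 in cortex, where 1 was lower, and the 9 other histone methyltransferases listed were higher in 7 genes in ESC, where 1 was lower, and in all 9 in cortex. The NuRD and corepressor counts with a common median were 11 higher and 2 lower in ESC and 5 higher and 3 lower in cortex. Those of acetyltransferases became 5 and 1 in ESC and 6 and 1 in cortex, and those of methyltransferases 6 and 2 in ESC and 5 and 0 in cortex. Over all genes 45.3% were higher and 31.5% lower in ESC, and 48.2% and 24.5% in cortex.

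After pladienolide B most chromatin regulators were lower, with a median below that of all genes. Of 71 rows with at least 1 TPM in a fibroblast group 65 were called, against 74.5% of all genes, and all 65 were lower and 0 higher, at an adjusted p under 0.05 (limma) and a log2 difference of at least 0.5. Over all 13743 genes 65.4% were lower and 9.12% higher. The median log2 difference was -1.88 in the chromatin regulators and -1.15 in all genes. With a common median of the libraries 38 rows were lower and 11 higher, beside 32.4% and 41.7% of all genes, and the medians were -0.54 and 0.19. The 10 most abundant genes held 11.3% to 11.4% of all TPM after DMSO and 15.847% to 15.952% after the drug.

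The Kdm genes had the lowest median change of the 7 families, at -2.50 on the log2 scale, with 15 of 15 rows lower and 12 lower with a common median. Of the 2 Hdac4 rows, which may share reads, the one numbered ENSMUSG00000073617 had the lowest change of all rows, from 4.88 and 4.91 TPM to 0.248 and 0.214 TPM. Kdm8, a JmjC domain protein, went from 6.21 and 5.99 TPM to 0.259 and 0.380 TPM (log2 difference -3.90, SE 0.18, adjusted p = 2.1e-05, limma). Kdm2b went from 10.0 and 9.75 TPM to 0.678 and 0.667 TPM, Kdm4b from 24.8 and 23.5 TPM to 1.69 and 2.21 TPM, and Kdm3b from 28.8 and 27.6 TPM to 2.68 and 2.83 TPM. Brd7, a subunit of the PBAF form of SWI/SNF, went from 34.8 and 33.7 TPM to 2.74 and 2.70 TPM, Smarcd1 from 36.7 and 34.6 TPM to 2.53 and 3.52 TPM, and Setd2, which methylates lysine 36 of histone H3, from 32.1 and 30.9 TPM to 2.91 and 3.48 TPM. Chd4 went from 153 and 142 TPM to 23.8 and 22.1 TPM, Hdac7 from 96.8 and 91.8 TPM to 10.0 and 13.9 TPM, and Kdm4a from 57.7 and 56.0 TPM to 6.43 and 6.36 TPM. All 5 Ing genes were lower, 3 of them also with a common median, and Ing4 went from 17.2 and 17.0 TPM to 2.98 and 3.12 TPM in Ing4. Drug and control libraries did not overlap in any of these genes, but the genes were picked among rows called lower, so this is no separate support.

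Among the 71 rows 6 were not called lower. Brd2 stood at 122 and 114 TPM after DMSO and 124 and 154 TPM after the drug (log2 difference 0.23, SE 0.11, adjusted p = 0.11, limma), while its 172 nt intron was retained in most reads. Hdac1 stood at 78.5 and 77.2 TPM and 81.0 and 77.6 TPM, and Chd3 at 121 and 111 TPM and 138 and 128 TPM. Smarca2 went from 50.7 and 47.5 TPM to 35.6 and 34.4 TPM, a log2 difference of -0.49 that reached the limit of 0.5 when DMSO replicate 2 or PladB replicate 1 was left out. Smarcc2 changed by -0.37 and Chd5 by -0.23. On the scale with a common median 15 rows below 0 turned positive. Of these, Brd9, Chd1l, Hdac3, Setd3 and Setd6 went from called lower to called higher, by 0.65, 0.68, 0.59, 0.52 and 0.54. Smarca2, Smarcc2 and Chd5, not called lower at first, were called higher by 0.86, 0.97 and 1.11, and Setd5 turned to 0.0281. Smarca4 and Smarcc1, the paralogues of Smarca2 and Smarcc2, were lower by 1.82 and 2.17 on the log2 scale.

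**Figure D5:**
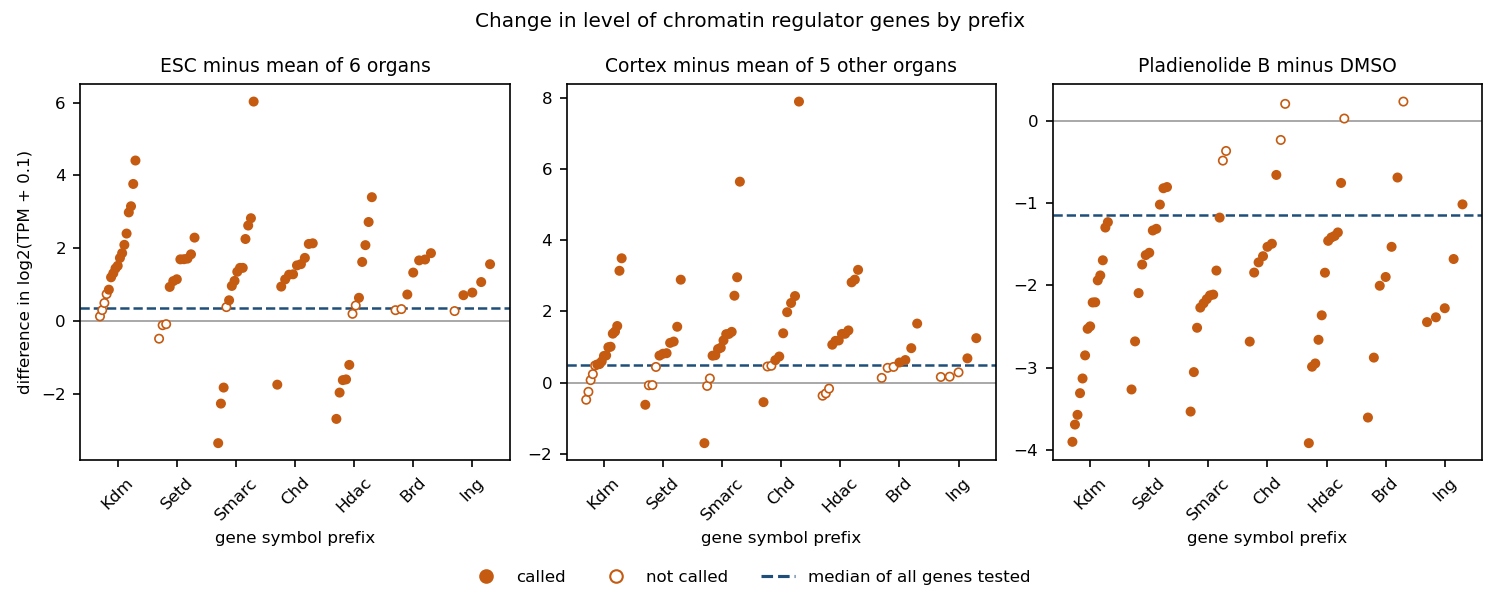
Difference in log2(TPM + 0.1) (vertical axis) of each chromatin regulator row by symbol prefix, for ESC against 6 organs, cortex against 5 other organs and pladienolide B against DMSO, with filled points for rows called by limma and a dashed line at the median of all genes tested. After the drug most points lie below the dashed line at -1.15, and in ESC most lie above that at 0.35.

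The markers of dividing cells fell in the same libraries, from a sum of 427 to 437 TPM after DMSO to 103 to 113 TPM after pladienolide B, and their part in the falls was not tested. The fibroblast markers Col1a1, Col1a2 and Pdgfrb summed to 2317 to 2419 TPM after DMSO and 2273 to 2373 TPM after the drug, but Pdgfrb alone went from 227 and 207 TPM to 44.5 and 43.6 TPM and Col1a2 from 1100 and 1071 TPM to 1272 and 1224 TPM. Of the partner lists, all 13 BAF partners tested, all 5 Polycomb repressive complex 2 genes, all 9 histone acetyltransferases, all 9 other histone methyltransferases and 12 of 16 NuRD and corepressor genes were lower after the drug, and none was higher, against 65.4% of all genes lower. With a common median the lower counts were 9 of 13 BAF partners, 5 of 5 Polycomb genes, 5 of 9 acetyltransferases, 2 of 9 methyltransferases and 11 of 16 NuRD and corepressor genes. On that scale Bcl7c, Kmt2c, Rbbp4, Rbbp7, Mbd3 and Sin3b were higher. Polycomb repressive complex 2 had the lowest median of these lists, at -3.33 on the log2 scale, against -1.15 for all genes.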

How the data were processed

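RNA-seq of 18 libraries was used. The authors aligned reads with HISAT2 2.0.1, per the labels, to mm10 and a SPRET/EiJ genome, assigned alleles by which genome needed fewer edits per read, and counted junction reads with rMATS on the Ensembl annotation. The deposited junction counts hold both replicates in one list, and the deposited effective lengths, recorded as a score for lack of a unit, give the read positions specific to each form and scale the counts. TPM values were made by the authors with strand-specific featureCounts, with fractional counts for overlapping genes. The inclusion levels and p-values of the authors' own comparisons were not used.

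PSI was recomputed as length-scaled inclusion over inclusion plus skipping reads, for autosomal events with at least 20 reads per replicate (and allele), so the X-linked Kdm5c, Kdm6a, Hdac6, Hdac8 and Smarca1 enter with TPM alone. Allelic events needed a PSI within 0.1 of that of all reads. A quasi-binomial model with dispersions of at least 1, moderated with limma 3.58.1 (R 4.3.3) toward a depth trend, gave F tests, adjusted by Benjamini-Hochberg over all events tested. TPM was tested with limma on log2(TPM + 0.1), which understates changes of low genes. Both procedures were tested on simulated data. Intervals of PSI were not computed, and the reads printed set its precision.

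Named were the 20 exons with the largest tissue difference, 12 exons between alleles and 8 by change of the allelic difference, the 12 largest falls and 8 rises after the drug, up to 12 introns, the 10 largest TPM rises and falls per contrast, and 23 genes regardless of value, of which 1 is not reported here. Exons and genes described beyond these were chosen after their values were seen. The genes and lists were chosen with earlier results of these data known. In the organs imprinted genes identified which count list belongs to which allele, in liver by Impact alone (45 C57BL/6J and 109 SPRET/EiJ reads). In ESC they did not tell the lists apart (50.2% C57BL/6J reads for Snrpn), and fibroblasts were not checked in this way. For ESC and fibroblasts the same order of the lists was assumed. Alternatives covered read minimum, PSI and log2 limits, prior, blocks, X chromosome, filters, pseudocount, scaling and leaving out each library.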

Additional observations from a re-analysis of the deposited data

How the results depend on the processing

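The counts in this section are of the chromatin regulators alone. They are not set against all events or genes at the same setting, so they do not compare these genes with others. With a PSI difference of at least 0.2, 22 events were called across tissues, 1 between alleles after DMSO, 1 after pladienolide B, and 39 by treatment, and with 50 reads 51 by treatment. Leaving out events near 0 or 1 gave 7 allelic calls in tissues and 5 after DMSO. With a library or replicate block, 0 events were called between alleles in tissues, after DMSO or after the drug and 0 by treatment (191 had an unadjusted p under 0.05 in the quasi-binomial test), 26 across tissues, 13 introns, and all 76, 63, 55 and 65 TPM rows. Among named exons the block ended the tissue calls of Hdac7, Setd6 (121 nt) and 2 of Setd5. The labels do not tie replicate numbers to animals or cultures. Deviations of same-numbered samples correlated between tissues with r from -0.048 to 0.032 in PSI and from -0.103 to 0.304 in TPM (highest for kidney and lung), and between treatments with -0.0017 in PSI and -0.136 in TPM.

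Leaving out one library gave 36 to 47 calls across tissues, 0 to 76 by treatment (0 without PladB replicate 1 or 2), 10 to 12 introns, 63 to 68 rows for ESC, 54 to 56 for cortex, 65 to 66 for the drug, 76 to 76 over tissues, and 0 to 0 for the change of the allelic difference. In allelic comparisons it leaves no residual spread, so the counts (4 to 4 in tissues, 2 to 2 after DMSO, 2 to 2 after the drug) say only that the differences remained at least 0.1. With a log2 limit of 1, 34 rows were called for cortex. With a common median, the drug effect turned to 1.11 in Chd5, 0.86 in Smarca2, 0.97 in Smarcc2 and 0.0281 in Setd5, as the shift of all genes differs from 0. The cause of the other changes was not tested. Over all alternatives, the values of named exons kept direction and call 405 times across tissues (lost the call 15 times), 105 times after the drug (46) and 76 times between alleles (16), and those of introns 109 times (10). The read depth and the 2 replicates a group limit these tests.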
